A study of Mus musculus with 30 samples.

Results

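Of 30 oligonucleotide arrays of RNA from mouse leg muscle cell culture, the 10 whose titles name them rep 3 were described against the 20 named rep 1 or rep 2. An Affymetrix mouse set of 2 chips, A and B, was used. On each chip rep 3 had 5 arrays, 1 at each of 0, 4, 12, 24 and 48 h, and reps 1 and 2 had 10, 1 each at every hour. These arrays were selected on their measured intensities, which had been seen to stand apart over all genes, so their offset from reps 1 and 2 is given as a description with no test. The labels give the same source (leg muscle), molecule (total RNA) and standard array protocol for all of them. The sources used here give no genotype, strain, sex, age, number of animals or medium, and not the event from which the hours count. The labels do not say what a replicate number stands for, so a separate culture, animal, RNA preparation or array run cannot be told apart. P-values reflect no more than the scatter of these arrays, and that scatter could be technical. Each hour of rep 3 is 1 array per chip, assumed in the tests to vary like the others, and the number of arrays limits the precision.

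Muscle in culture begins as dividing myoblasts, which leave the cell cycle, turn on myogenin, fuse and assemble contractile fibres. Exit from the cycle is held by inhibitors of cyclin-dependent kinases, and the genes of DNA replication and of mitosis are silenced together by E2F and DREAM complexes. Primary muscle cultures usually also hold fibroblasts and other connective tissue cells, which make interstitial matrix.

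Values are the deposited linear intensities of probe sets, in the authors' scaled units. A difference is rep 3 minus the mean of reps 1 and 2 in log2(intensity + pseudocount), taken at each hour and averaged over the 5 hours. The pseudocount, 29 on A and 54 on B, understates differences of dim genes. The brighter 60% of probe sets were kept, and a gene is its brightest kept probe set, from A before B, which gave 12446 genes. A gene is called apart when rep 3 lay above, or below, both other replicates at all 5 hours. Ranges are said not to overlap when every rep 3 array lay beyond all arrays of reps 1 and 2. The share of all genes with such ranges was not counted, so this only describes the genes named.

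By this measure 1390 genes lay above (11.2% of genes) and 1249 below (10%). With a difference of at least 2-fold as well, 263 genes were higher (2.11%) and 170 lower (1.37%). The median over all genes was -0.01. By probe set, A had 1577 above (11.6%) and 1484 below (10.9%), of which 303 (2.23%) and 169 (1.24%) reached 2-fold. B had 858 above (6.35%) and 702 below (5.2%), of which 176 (1.3%) and 127 (0.94%) reached 2-fold. At the 2-fold limit on A, Prdx4 (1.00) lay just inside and Cenpn (0.999) just outside, and on the lower side Dapk1 (-1.001) just inside and Tcim (-0.998) just outside. On A, rep 3 accounted for 34.7% of the sum of squares over the tested probe sets and rep 3 by hour for 15.4%, beside 35.4% for hour and 14.6% for rep 1 against rep 2. On B these were 18.9%, 22.2%, 35% and 23.9%. The shares rest on unequal degrees of freedom, the fewest for rep 3 itself, so their sizes do not rank these sources. Between 701 and 983 of 13575 A probe sets differed 2-fold between the rep 3 array and either other array of its hour, against 41 to 237 between reps 1 and 2. The B chip was noisier, with 1177 to 1752 of 13506 for the rep 3 array and 655 to 1094 between reps 1 and 2. Array medians overlapped, at 159.3 to 176.8 in rep 3 and 154.7 to 183.4 in reps 1 and 2 on A. RNA quality, read as the 3′ to 5′ signal ratio of the beta-actin control on A, was 1.02 to 1.12 in rep 3 and 1.04 to 1.18 in the others.

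Some of the genes furthest apart were near the floor in one of the sets of arrays, and a gene of this kind passed the brightness filter through the other set. Crabp1, which encodes a cytosolic binding protein for retinoic acid, read 1319.9, 1495, 1616, 2715 and 3149 at 0, 4, 12, 24 and 48 h in rep 3. In reps 1 and 2 it ran over 6.0 to 31.1, with a median of 17.9. The sets of arrays did not come near each other at any hour (difference 5.44). Crabp1 also rose over the hours within rep 3, with a fitted change of 1.33. In reps 1 and 2 it lay around the pseudocount of 29, so its changes there and in rep 3 were not compared. The fit takes its scatter partly from those floor values, so no p-value is given for the rise.

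Ptx3, a secreted pentraxin of innate immunity, read 1070.2, 1201, 1279, 1461 and 2405 in rep 3, against 91.2 to 176 (median 129) in reps 1 and 2. Tinagl1, a secreted matricellular protein, read 677, 679.8, 842, 803 and 843 in rep 3 and 16.5 to 124 (median 48.3) in the others. Both were higher in every rep 3 array than in any other array. Cd34, a sialomucin of the surface of progenitor cells, read 913, 728, 574, 744 and 1044 in rep 3, against 53.9 to 164 (median 97.8). Bgn, the small matrix proteoglycan biglycan, read 4386, 5024, 6003, 7908 and 7348 in rep 3, against 986 to 1836 (median 1275). These again did not overlap.

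Other genes of this kind were Nfib, a transcription factor of the nuclear factor I family (difference 2.56), Bmp4, a bone morphogenetic protein ligand (2.27), and Apcdd1, an inhibitor of Wnt signalling (2.48). Tkt, the transketolase of the pentose phosphate pathway, stood at 2567 to 3004 in rep 3 and 379 to 1173 in reps 1 and 2. Gask1b, a Golgi-associated protein, differed by 2.67, and Bhlhe40, a repressor tied to the circadian clock, by 2.23. On B the most separated were Mlkl, the executor of necroptosis (2.90), Rtl3, a gene derived from a retrotransposon (2.36), Pcdh19, a protocadherin (2.34), and Mecom, a zinc finger transcription factor (1.94), with the unnamed transcript 3110039M20Rik (3.88).

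Cthrc1, a secreted protein of remodelling matrix, was the gene furthest below. It read 24.1, 43.9, 74.1, 181 and 168 in rep 3, against 11601, 11291, 7301, 1508 and 1392 in rep 1 and 11870.3, 10453, 7467, 1470.2 and 1320.3 in rep 2. Rep 3 lay below at every hour, with hourly log2 differences of -7.24 to -2.67 that were smallest in size at 24 and 48 h. The fitted change was 1.71 in rep 3 (limma, adjusted p = 0.0889) and -3.58 in reps 1 and 2 (adjusted p = 3.02e-06). At 0 and 4 h rep 3 was below the pseudocount of 54, which bears on the size of its fitted change, so the changes were not compared.

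Rgs5, a brake on G protein signalling that is abundant in pericytes, read 118, 108, 69.1, 7.8 and 43.3 in rep 3, against 543 to 2592 (median 1799) in reps 1 and 2. Rgs5 fell over the hours in reps 1 and 2, with a fitted change of -2.41 (limma, adjusted p = 1.5e-07). In rep 3 the fitted change was -1.58. The rep 3 value of 7.8 was below the pseudocount, which bears on the size of that change. No p-value is therefore given for rep 3, and the changes were not compared. Nid1, the basement membrane linker nidogen 1, read 20.5, 22.6, 1.6, 2.6 and 2.2 in rep 3, against 182 to 309 (median 245). Every rep 3 array lay far below every other array for Nid1. Also lower were Ptgis, the prostacyclin synthase (difference -2.99), Gpx3, a secreted glutathione peroxidase (-2.44), Cldn4, a claudin of tight junctions (-2.45), Casd1, a sialic acid O-acetyltransferase (-2.83), and Tmem30b, a subunit of lipid flippases (-2.65). On B the lower group held Eva1b (-3.24), Dynap (-3.01), Lipo3 (-3.00) and Dmrta2, a DM-domain transcription factor (-3.00). A second tested probe set was at hand for some named genes, and 169 of 187 such probe sets had the same sign of difference. 2210016F16Rik, lower by its brightest probe set (-2.78), was at 0.05 by another.

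**Figure D1:**
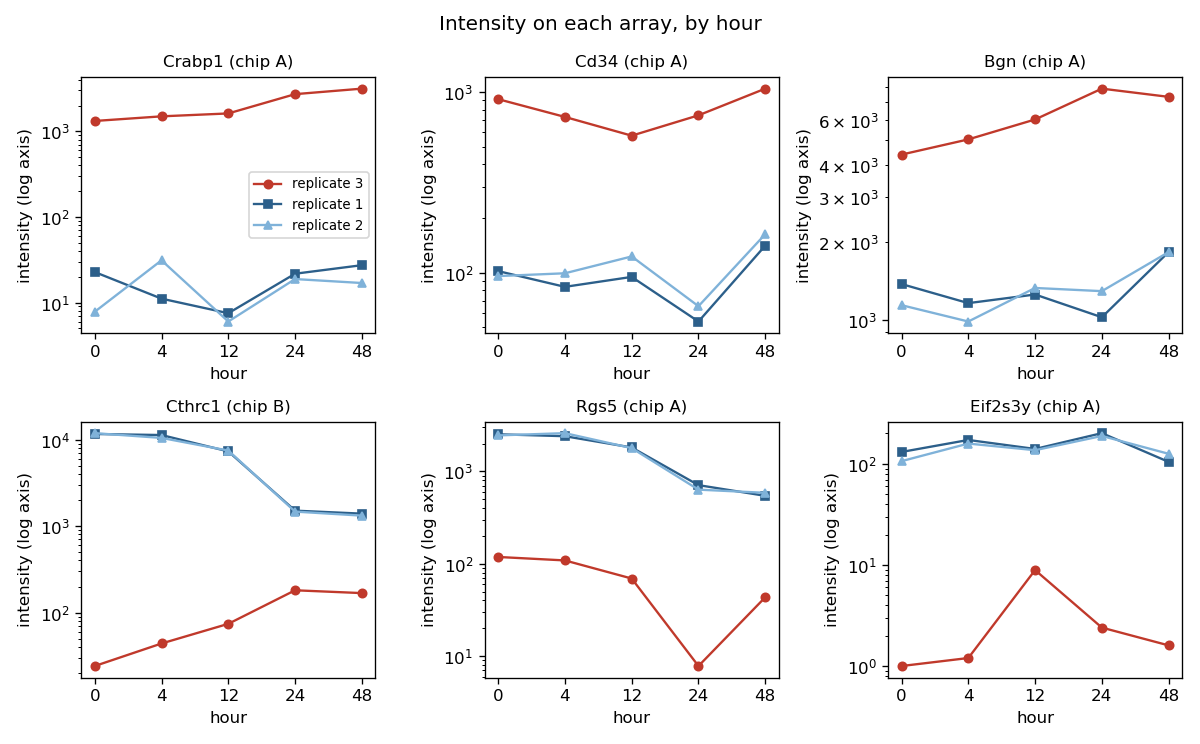
Intensity (log scale, scaled units) of 6 genes against hour on the single arrays of rep 3 (red circles), rep 1 (dark squares) and rep 2 (light triangles). Crabp1, Cd34 and Bgn lie higher and Cthrc1, Rgs5 and Eif2s3y lower in rep 3 at all 5 hours.

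Transcripts of the Y chromosome were near the floor in rep 3. Those named here were below the brightness filter on A. Eif2s3y is a Y-linked subunit of translation initiation factor 2. It read 1.0, 1.2, 8.9, 2.4 and 1.6 in rep 3 and 104.7 to 201.6 in reps 1 and 2. Kdm5d, a Y-linked histone demethylase, read 31.1, 6.3, 12.0, 5.0 and 9.0 in rep 3, against 48.1 to 93.5, and Uty, a relative of such enzymes, 15.2 to 43.4 in rep 3, against 61.2 to 133.3. None of these probe sets overlapped between the sets of arrays, whereas a further Kdm5d probe set and the B probe set of Eif2s3y, both dim, did. Xist, the RNA of the inactive X chromosome, read 1824, 2656, 2855, 2955 and 3259.5 in rep 3 and 1447 to 3174 in reps 1 and 2, so it was bright in all arrays and overlapped. By chromosome, the median difference ran from -0.057 (chromosome 13) to 0.057 (chromosome 4), and was -0.012 on the X.

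Genes of cell division were higher in rep 3. Of 38 S phase and replication genes tested, 33 lay above and 0 below at all hours, against 11.2% and 10% of all genes, and 17 were at least 2-fold higher (median difference 0.93). Of 51 G2 and mitosis genes, 49 lay above and 0 below, and 27 were at least 2-fold higher (median 1.01). The median over all genes was near 0. The exceptions that did not lie above at every hour were Ccne1, Pola2, Rrm2, Fen1 and Rfc2 for S phase and Cdc25b and Ccnf for mitosis. Ccne1, cyclin E1, was the only tested gene of either list with a negative difference (-0.25).

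Top2a, the topoisomerase that untangles chromosomes for mitosis, read 2234, 2086, 1562, 1886 and 2187 in rep 3, against 921, 910.4, 524, 402 and 1011 in rep 1 and 953, 1085, 456, 433 and 1042 in rep 2. In reps 1 and 2 the level dipped at 12 and 24 h and was back at 48 h. Rep 3 was also lowest at 12 h, at 1562, and read 2187 at 48 h. Mki67, the proliferation antigen, was likewise higher at every hour, with 1170.2, 1281, 828, 1137 and 1349 in rep 3 and 672, 705, 286, 272 and 642 in rep 1. Birc5, the chromosomal passenger survivin, read 2509, 2391, 2032, 1734 and 1754 in rep 3, against 458 to 1078 (median 798), and Melk, a mitotic kinase, 742, 717, 704, 618 and 728, against 85.7 to 476 (median 276). Neither gene overlapped. Espl1, the separase that splits sister chromatids, read 1991 to 3168 in rep 3 and 552 to 1311 in reps 1 and 2.

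Among replication genes, Tk1, thymidine kinase 1, read 1952, 1952, 1555, 1149.9 and 1342 in rep 3, against 287 to 689.9 (median 511). Rfc4, a subunit of the clamp loader, read 658, 608, 495, 423 and 469.7, against 118 to 241 (median 153), and Mcm5, of the replicative helicase, 1548, 1159, 1133, 893 and 1110.4, against 205 to 746 (median 399.6). All 5 rep 3 arrays lay above all others for these 3 genes. Cdc6, which loads the helicase at origins, read 222 to 466 in rep 3 and 27.1 to 166 in the others. The median difference of both lists was smallest at 48 h and largest at 24 h. It was 0.91, 0.89, 1.12, 1.18 and 0.68 by hour for S phase and 0.86, 1.03, 1.25, 1.35 and 0.79 for mitosis. No gene of either list passed the test for a linear change over the hours that differed between rep 3 and the others (limma). Among all genes 2.52% passed in either direction. The test compared only the linear part of the change along the rank of the hours. A difference that is largest at 24 h and smallest at 48 h is mostly missed by a linear term. The test therefore cannot decide whether the genes of these lists followed the same course in rep 3 and the others. At an unadjusted p under 0.05 there were 0 of the S phase and 2 of the mitosis genes (15.7% of all genes), and without the 48 h array of rep 3 the adjusted test called 1 mitosis gene, with a more positive change.

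Promoters of the division genes were read for the short elements known from textbooks, CCAAT and the cell cycle homology region TTTGAA for mitosis, and the E2F elements TTCCCGCC and TTTGGCGC for replication. Windows run from 250 bases before to 50 after the gene start (RefSeq, GRCm38.p6), and both strands were searched. Of 43 mitosis genes with a window, 69.8% held TTTGAA, 74.4% CCAAT and 62.8% both, against 12.0%, 38.3% and 4.75% of 10060 windows of tested genes. CCAAT was also in 54.8% of the replication and 93.8% of the cholesterol windows. Of 31 replication genes, 35.5% held an E2F element, against 4.76%. In other lists of these data, the E-box CAGCTG was in 37.9% of 29 sarcomere windows, against 15.3%, and the sterol element TCACNCCAC in 1 of 16 cholesterol windows. A match describes these letters and is not a bound site. CCAAT and TTTGAA can share an end letter. The windows of the 2 members of each list with the largest difference that held the elements are shown 5′ to 3′ along the gene, with elements on either strand in capitals.
Espl1, chr15:102296043-102296342 (+ strand): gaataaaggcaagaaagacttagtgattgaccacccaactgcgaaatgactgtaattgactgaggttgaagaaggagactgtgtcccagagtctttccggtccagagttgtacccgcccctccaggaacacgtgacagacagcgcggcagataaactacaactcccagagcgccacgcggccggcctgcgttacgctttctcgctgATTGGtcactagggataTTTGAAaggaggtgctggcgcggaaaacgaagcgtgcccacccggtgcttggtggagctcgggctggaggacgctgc
Top2a, chr11:99024140-99024439 (- strand): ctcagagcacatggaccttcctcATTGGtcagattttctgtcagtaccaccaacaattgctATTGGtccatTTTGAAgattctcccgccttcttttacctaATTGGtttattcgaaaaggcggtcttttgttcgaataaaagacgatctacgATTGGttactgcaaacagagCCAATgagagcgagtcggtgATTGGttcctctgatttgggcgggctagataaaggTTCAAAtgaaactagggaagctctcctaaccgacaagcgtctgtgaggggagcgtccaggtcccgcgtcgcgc
Rfc4, chr16:23127681-23127980 (- strand): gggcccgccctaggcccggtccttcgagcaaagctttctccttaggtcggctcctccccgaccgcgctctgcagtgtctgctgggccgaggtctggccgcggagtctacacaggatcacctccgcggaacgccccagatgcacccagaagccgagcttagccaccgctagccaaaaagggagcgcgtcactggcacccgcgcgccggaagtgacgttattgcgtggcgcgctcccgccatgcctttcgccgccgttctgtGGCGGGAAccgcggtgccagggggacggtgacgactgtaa
Mcm5, chr8:75109259-75109558 (+ strand): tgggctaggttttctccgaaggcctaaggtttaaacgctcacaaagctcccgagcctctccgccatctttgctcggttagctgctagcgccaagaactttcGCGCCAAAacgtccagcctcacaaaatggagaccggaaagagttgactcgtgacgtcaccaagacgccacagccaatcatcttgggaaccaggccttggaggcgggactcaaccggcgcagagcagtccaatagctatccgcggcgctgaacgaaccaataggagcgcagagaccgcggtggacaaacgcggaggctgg

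Of the inhibitors that hold the cycle, 3 were at least 2-fold lower in rep 3 (1.37% of all genes were). Cdkn2b, which encodes p15, read 376, 268, 227, 256 and 352 in rep 3, against 924 to 1746 (median 1205) in reps 1 and 2. Cdkn2a, which encodes p16 and p19Arf, read 101, 47.4, 47.5, 42.9 and 34.5, against 196 to 366 (median 246). Neither gene overlapped. Cdkn1c, which encodes p57 and is imprinted, read 964, 739, 1959, 2655 and 1077 in rep 3 and 2592, 3025, 4656, 6393 and 1273 in rep 1, lower in rep 3 at each hour although the ranges overlap. Cdkn1a, the p21 inhibitor induced in differentiating myoblasts, was bright in all, at 6530.4 to 9558 in rep 3 and 9266 to 12293 in reps 1 and 2 (difference -0.35). Rb1, the retinoblastoma protein, was also below (-0.72). In the other direction lay Cdkn2c, which encodes p18 (0.82), Cdkn1b, p27 (0.78), Cdkn2d, p19Ink4d (0.40), and the pocket protein Rbl1 (1.04). In all, 5 of the 10 genes lay below and 4 above, against 10% and 11.2% of all genes.

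Myc, the growth transcription factor, read 1129.5, 939.6, 869.9, 1191 and 1667 in rep 3, against 377 to 921 (median 568), and Ccnd1, cyclin D1, 3395 to 4449, against 1827 to 3645. Both lay above at each hour, as did E2f1 (0.38) and E2f2 (0.47). Mycl, a Myc relative, was lower (-1.19) and fell over the hours in both sets of arrays. Ccnd2, cyclin D2, had a negative difference but was not apart. Of 11 G1 cyclin and Myc family genes, 4 lay above and 1 below at all hours, against 11.2% and 10% of all genes. In that list 7 differences were positive and 4 negative (median 0.16). Of 16 p53 targets 5 lay below (10% of all genes did) and 1, the kinase gene Plk2 (0.69), above (11.2%). The 5 were Trp53inp1 (-0.99), Gadd45a (-0.59), Btg2, Cdkn1a and Ccng1 (median of the list -0.17).

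Genes for making lipid and ribosomes were also higher. Of 12 fatty acid genes, 8 lay above and 0 below at all hours (median difference 0.69), against 11.2% and 10% of all genes. Elovl6, an elongase, read 849, 751, 970.5, 968 and 845 in rep 3, against 211 to 456 (median 324), and Fads1, a desaturase, 1579, 1240.2, 1362, 1246 and 1639, against 416 to 914 (median 681). Neither overlapped. Scd1, the stearoyl-CoA desaturase, read 993 to 1221 in rep 3 and 289.5 to 765 in reps 1 and 2, where it fell over the hours (fitted change -0.98, limma, adjusted p = 0.000508). Acaca (0.85) and Fasn (0.89), which make palmitate, and Fads2 (0.93) also lay above, whereas Me1 (-0.23) and Acss2 (-0.07) did not.

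For cholesterol, 9 of 20 genes lay above and 0 below (median 0.46), against 11.2% and 10% of all genes. They were led by Lss, lanosterol synthase (1.35), Msmo1, a methylsterol oxidase (1.08), Stard4, a sterol carrier (1.04), and Mvk, mevalonate kinase (1.00). Tm7sf2, a sterol reductase, went the other way (-0.27). Ribosome biogenesis had 10 of 21 above and 0 below (median 0.35), with Srm, spermidine synthase, at 2792 to 3612 in rep 3 and 1395 to 1983 in reps 1 and 2. Cytosolic ribosomal proteins, by contrast, had 0 of 20 apart in either direction (median 0.02), and glycolysis 2 of 11 above, Hk2 (0.88) and Pfkl (0.71).

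**Figure D2:**
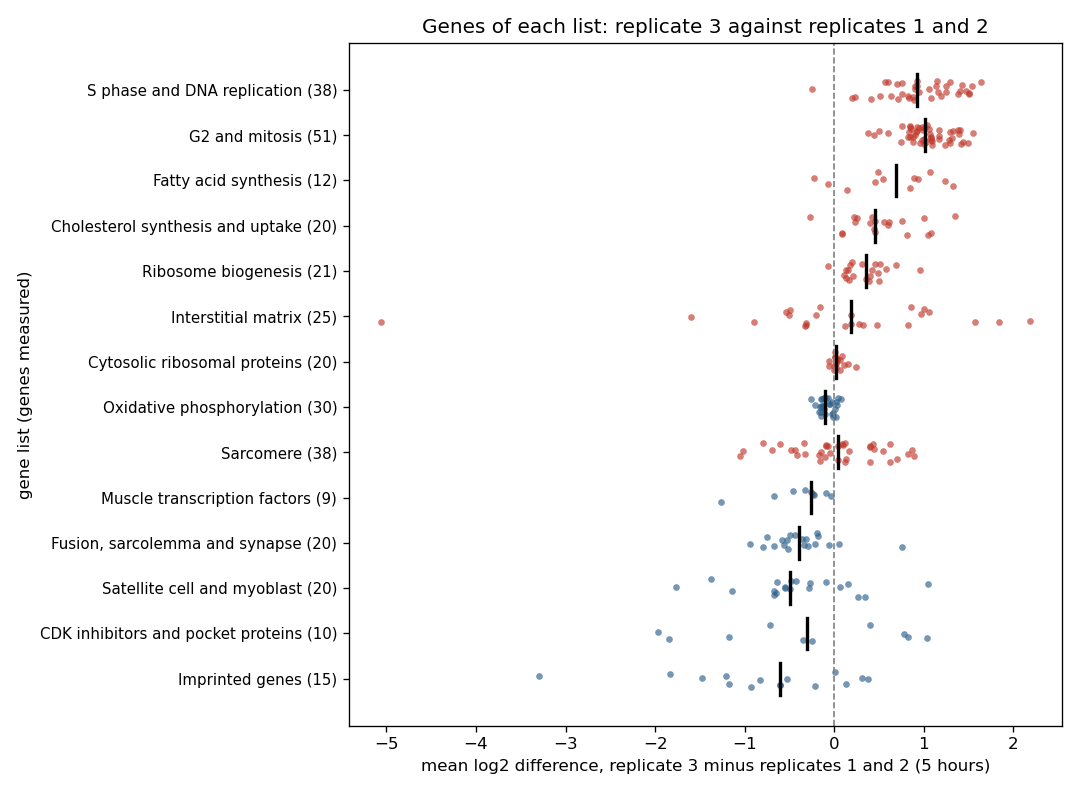
Mean log2 difference, rep 3 minus reps 1 and 2, of each gene (dots) in 14 gene lists, with the list median as a black bar and the number of genes in brackets; dots are red where that median is above 0 and blue otherwise. Medians are 1.01 for G2 and mitosis, 0.93 for S phase and -0.61 for imprinted genes.

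Markers of the muscle lineage were present in rep 3 and somewhat lower. All 9 muscle transcription factors had a negative difference and 6 lay below at all hours (median -0.26), against 10% of all genes. Myog, myogenin, read 9594, 10186, 11160.1, 10333 and 6429 in rep 3, against 9456 to 12722 (median 10896), and Myod1, the determination factor, 5693, 7098, 7141, 5571 and 3109, against 5316 to 9300.3 (median 8106). Both were bright in every array, and lowest in the 48 h array of rep 3. Myf6, a late myogenic factor, was dim and lower, at 56.0, 11.9, 63.5, 72.6 and 74.9 in rep 3 and 108 to 253 in the others. Mef2a (-0.67) and Mef2d (-0.33), partners of the myogenic factors, were lower too.

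Of 20 satellite cell and myoblast genes, 10 lay below and 1 above (median -0.49), against 10% and 11.2% of all genes. Pax7, which marks satellite cells, read 225, 217, 169, 114 and 152 in rep 3, against 160.2 to 448 (median 295). It was lower at each hour, though the ranges overlap. Cxcr4, a chemokine receptor, read 426, 575, 315, 66.3 and 44.2 in rep 3 and 1613, 1476, 1260.5, 459 and 203 in rep 1. It fell steeply in both sets of arrays, with changes of -3.17 in rep 3 and -2.64 in reps 1 and 2 (limma, adjusted p = 1.36e-05 and 1.19e-07). The Notch pathway genes Notch3 (-1.38) and Dll1 (-1.14) were lower, Notch1 was not apart (0.34), and Vcam1, an adhesion molecule, was higher (1.05). The 10 genes of the skeletal muscle marker list summed to 55362.6 to 82277.9 in rep 3 and 63610.5 to 90672.8 in reps 1 and 2.

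Whether transcript levels changed over the hours in a different way in rep 3 is a separate contrast from its mean offset and was tested in limma. For genes near the floor in either set of arrays the change and the offset are linked, since values at the floor cannot fall further. The fitted change is the log2 change from 0 to 48 h along the rank of the hours, and p-values were adjusted over each chip. The change was more positive in rep 3 for 227 A probe sets (1.67%) and more negative for 195 (1.44%), and on B for 52 (0.385%) and 48 (0.355%). Over genes this made 149 (1.2%) and 165 (1.33%). In both directions together A had 422 calls (3.11%) and B had 100 (0.74%). Without the 48 h array of rep 3 these counts were 108 and 17. Within rep 3, 132 A probe sets rose (0.972%) and 151 fell (1.11%), and on B 47 (0.348%) and 52 (0.385%). Without its 48 h array 65 changed on A and 17 on B. In reps 1 and 2, with 10 arrays a chip, 1186 rose on A (8.74%) and 1391 fell (10.2%), and on B 505 rose (3.74%) and 640 fell (4.74%). Of the A probe sets called rising in a fit to reps 1 and 2 alone, 905 of 1161 (78.0%) also had a positive change in rep 3, with medians of 0.27 in rep 3 and 0.76 in reps 1 and 2. Of those falling, 968 of 1382 (70.0%) were negative in rep 3, with medians of -0.20 and -0.68. The calls were made in reps 1 and 2, which by itself favours larger changes there.

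Contractile genes rose less in rep 3, and the rep 3 arrays began higher and ended lower. Of 38 sarcomere genes, 17 had a more negative change in rep 3 and 0 a more positive one (7 and 0 without the 48 h array of rep 3), against 1.33% and 1.2% of genes. Of the 38, 11 rose in rep 3 (0.803% of all genes did, and 1.07% fell) and 32 in reps 1 and 2 (7.7% of all genes did, and 9.55% fell). Rep 3 has 5 arrays a chip and reps 1 and 2 have 10, which by itself favours more calls in reps 1 and 2. The median change was 0.42 in rep 3 and 1.43 in reps 1 and 2. By hour the median difference was 0.47, 0.36, 0.13, -0.06 and -0.74, which leaves a mean near 0 (0.04).

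Myh7, the slow myosin heavy chain, read 424, 312, 557, 1002 and 625 in rep 3, against 107, 115, 256, 882 and 1310.0 in rep 1 and 82.8, 98.1, 238, 806 and 1273 in rep 2. Rep 3 lay above both at 0 to 24 h and below both at 48 h. Myh7 rose in both, by 1.06 in rep 3 (limma, adjusted p = 0.0334) and 3.81 in reps 1 and 2 (adjusted p = 3.91e-10), a difference of -2.75 ± 0.30 (adjusted p = 0.000141). Myh3, the embryonic heavy chain, read 5236, 5632, 7916, 9197 and 5869 in rep 3 and 3624, 5286, 8522, 9986 and 10662 in rep 1 and differed in change by -1.18 (limma, adjusted p = 0.00568), a call lost without the 0 or 48 h array of rep 3. Ttn, the giant scaffold titin, lay below in rep 3 at every hour (-1.05), as did Mybpc1, slow myosin binding protein C (-1.02), and both rose in rep 3, by 1.14 and 1.75 (limma, adjusted p = 0.046 and 0.00194). Myh8, the perinatal heavy chain (0.89), and Myot, myotilin (0.87), were on average higher but not apart.

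Mef2c, the transcription factor that drives late muscle genes, read 1668, 1575, 2125, 2999 and 2925 in rep 3, against 966, 1412, 2188, 4669 and 5520.5 in rep 1 and 811, 1042, 2177, 5170.0 and 5978 in rep 2. It rose by 1.01 in rep 3 (limma, adjusted p = 0.00757) and by 2.92 in reps 1 and 2 (adjusted p = 3.32e-10), a difference of -1.92 ± 0.23 (adjusted p = 0.000191). The call was kept whichever array was left out, as it was for Myh7.

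The calcium machinery and the energy supply of muscle gave the same kind of count. Of 16 excitation-contraction coupling genes, 9 had a more negative change in rep 3 and 0 a more positive one. Among all genes 1.33% and 1.2% did. Without the 48 h array of rep 3 the counts were 2 and 0. The median change was 0.50 in rep 3 and 1.48 in reps 1 and 2. Cacna1s, the voltage sensor of the T tubule, read 283, 297, 372, 511 and 357 in rep 3 and 85.1, 158, 203, 641 and 918 in rep 1 (difference of change -2.70, limma, adjusted p = 0.00314; -2.06 and not called without the 48 h array of rep 3). Casq1, the calcium buffer of the reticulum, read 568, 548, 1084, 1221 and 1285 in rep 3 and 272, 173, 329.7, 935 and 2618 in rep 1. Its difference of change was -2.05, and -0.73 and not called without the 48 h array of rep 3, 1 of 6 arrays whose loss ended the call. Both genes rose in reps 1 and 2 and did not pass in rep 3. Stac3 (-1.14), Ryr1 (-0.79) and Jsrp1 (-0.71), which work with the release channel, were lower at all hours.

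For energy supply, 6 of 12 had a more negative change in rep 3 and 0 a more positive one. Among all genes 1.33% and 1.2% did. Without the 48 h array of rep 3 the counts were 2 and 0. Fabp3, a fatty acid carrier of muscle, read 245, 242, 426, 498 and 389 in rep 3, against 110.3, 125, 216, 945 and 1256 in rep 1 and 156, 137, 214, 774 and 1474 in rep 2. The difference of change was -2.61 ± 0.45 (limma, adjusted p = 0.00394), and -1.77 and no longer called without the 48 h array of rep 3. Ckm, muscle creatine kinase (difference of change -1.51), and Pgam2, a glycolytic mutase of muscle (-1.63), were called too, both losing the call without the 4, 24 or 48 h array of rep 3 and Pgam2 also without the 48 h array of rep 1, and Fn3k, a fructosamine kinase in no list that was below the pseudocount in some arrays of reps 1 and 2, had -3.25 ± 0.47 (limma, adjusted p = 0.00104). Ampd1, the muscle AMP deaminase, was the member furthest below in level (-2.05), and Phka1 of phosphorylase kinase was lower too (-0.83).

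**Figure D3:**
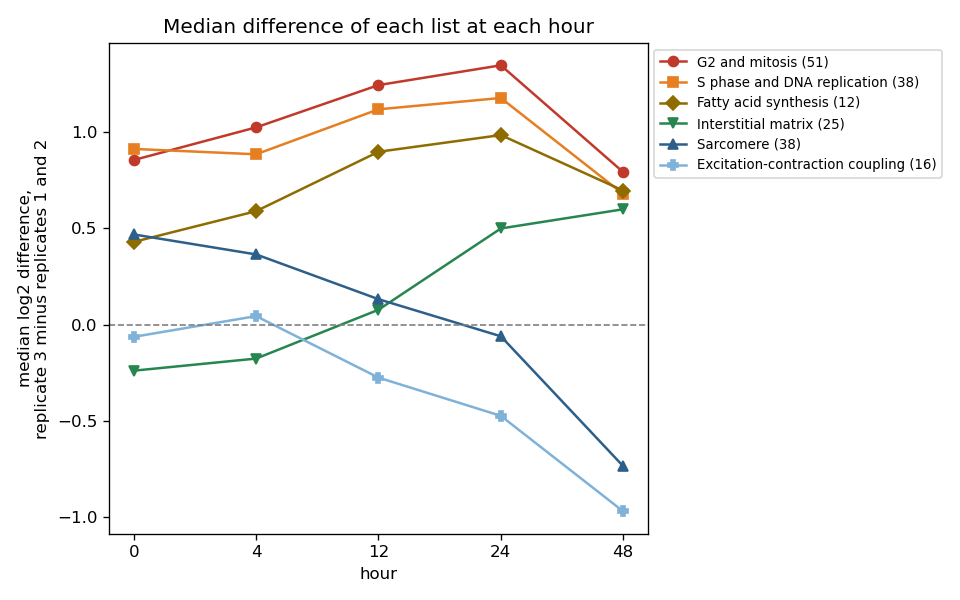
Median log2 difference, rep 3 minus reps 1 and 2, by hour for 6 gene lists. Sarcomere genes go from 0.47 at 0 h to -0.74 at 48 h and interstitial matrix from -0.24 to 0.60, while both cell division lists stay above 0.6.

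Fusion, membrane and synapse genes were mostly a little lower, with a median of -0.40. Of 20, 8 lay below and 1 above, against 10% and 11.2% of all genes. Chrng, the fetal subunit of the acetylcholine receptor (-0.94), Sgca, alpha-sarcoglycan (-0.80), and Musk, the kinase of the neuromuscular synapse (-0.75), were lowest, and Kirrel, an adhesion molecule, was higher (0.75). Cav3, the muscle caveolin, changed less in rep 3 (-1.98; limma, adjusted p = 0.00646), a call lost without the 48 h array of rep 3.

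Matrix genes ran the other way over the hours. Of 25 interstitial matrix genes, 7 had a more positive change in rep 3 and 0 a more negative one (4 and 0 without the 48 h array of rep 3), against 1.2% and 1.33% of all genes. Cthrc1, near the floor in rep 3 and kept by the brightness filter through reps 1 and 2, is 1 of the 7 and of the 4. In rep 3, 2 rose (0.803% of all genes did), and in reps 1 and 2, which have more arrays, 14 fell (9.55%). The median change was 0.46 in rep 3 and -0.62 in reps 1 and 2. In level, 7 lay above and 1, Cthrc1, below at all hours, against 11.2% and 10% of all genes.

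Besides Bgn, the higher genes were Fbln5, an elastic fibre protein (1.84), the collagen VI chains Col6a1 (1.57) and Col6a2 (1.06), Lox, the collagen crosslinking oxidase (0.97), Col1a2 (0.82) and Fn1, fibronectin (0.48). Mfap2, a microfibril protein, read 23.5, 36.0, 28.0, 33.9 and 35.5 in rep 3 and 257, 255, 182, 39.9 and 59.0 in rep 1, lower at every hour except 24 h. Postn, periostin, read 54.8, 55.4, 94.4, 109 and 252 in rep 3, against 266, 284, 202, 212 and 156 in rep 1 and 252, 347, 201, 152 and 103 in rep 2. It rose in rep 3 (limma, 1.68, adjusted p = 0.0164) and fell in the others (-0.99, adjusted p = 0.00806); the call of a difference (2.67) was lost without the 48 h array of rep 3 (1.87).

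Proteases and their inhibitors split. Mmp2, a gelatinase, read 102, 86.0, 64.0, 101 and 140.5 in rep 3, against 276 to 1026 (median 699), and Timp3, a matrix-bound inhibitor, 903, 1004, 1006, 912 and 1338, against 113 to 644 (median 207). Mmp2 was lower and Timp3 higher in rep 3, and neither overlapped. Both fell in reps 1 and 2, with changes of -1.61 and -1.53 (limma, adjusted p = 5.59e-05 and 0.00015), and the change differed from rep 3 by 1.97 and 1.92. The first call was lost without the 48 h and the second without the 0 h array of rep 3. Adamts5 (1.26) and Adamts1 (1.03), which cleave proteoglycans, were higher. Basement membrane genes divided too, with 4 of 12 above, among them Lamc1 (0.92) and Col4a5 (0.88), and 2 below, Nid1 and Lama2 (-0.82). Of all genes, 11.2% lay above and 10% below.

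Other genes whose course differed were not in a muscle list. Ccdc80, a secreted matrix-associated protein, read 721, 896, 1025, 1373 and 1397 in rep 3, against 1411, 1338, 552, 461 and 483 in rep 1 and 1031, 1227, 771, 445 and 397 in rep 2. It fell in reps 1 and 2 (-1.70; limma, adjusted p = 5.54e-06), and its change was more positive by 2.68 ± 0.32 in rep 3 (adjusted p = 0.000222). Htra1, a secreted serine protease, read 711, 472, 707, 855 and 1319 in rep 3 and 1009, 824, 441, 284 and 265 in rep 1, with a difference of change of 2.78 ± 0.35 (limma, adjusted p = 0.000319). The levels crossed between 4 and 12 h in both genes.

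Inhbb, a subunit of activin and inhibin, read 111, 132, 106, 131 and 154 in rep 3 and 975, 804, 546, 234 and 188 in rep 1. The fitted change was 0.31 in rep 3 (limma, adjusted p = 0.573), and it fell in reps 1 and 2 (-2.41, adjusted p = 2.1e-08). Ndrg1, a gene induced by hypoxia, rose in rep 3 by 2.16 (limma, adjusted p = 8.91e-05), with 239, 291, 412, 523 and 1292, and fell in the others, with 357, 378, 308, 274 and 255 in rep 1. Of 12 hypoxia response genes, 2 had a more positive change in rep 3 and 1, Egln3, a more negative one (-1.47). Among all genes 1.2% and 1.33% did. The median difference in level of these 12 genes was 0.002. Stmn2, a tubulin-binding protein known from neurons, read 256, 258, 290.0, 222 and 306 in rep 3 and 1265, 1146, 656, 251 and 311 in rep 1. The neurofilament genes Nefl and Nefm went the opposite way, with 232, 118, 95.3, 73.9 and 69.7 in rep 3 and 274, 127, 255, 279 and 919 in rep 1 for Nefl (difference of change -3.19) and -2.60 for Nefm. Dynap, bright in all arrays, fell more in rep 3, which read 6112, 5355, 1701, 839.6 and 507, against 27294, 20628, 14567, 12279 and 9487 in rep 1 (limma, difference of change -2.31 ± 0.28, adjusted p = 0.00129). Of 43 named genes with a differing change, 14 kept the call whichever array was left out and 25 lost it without the 48 h array of rep 3.

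**Figure D4:**
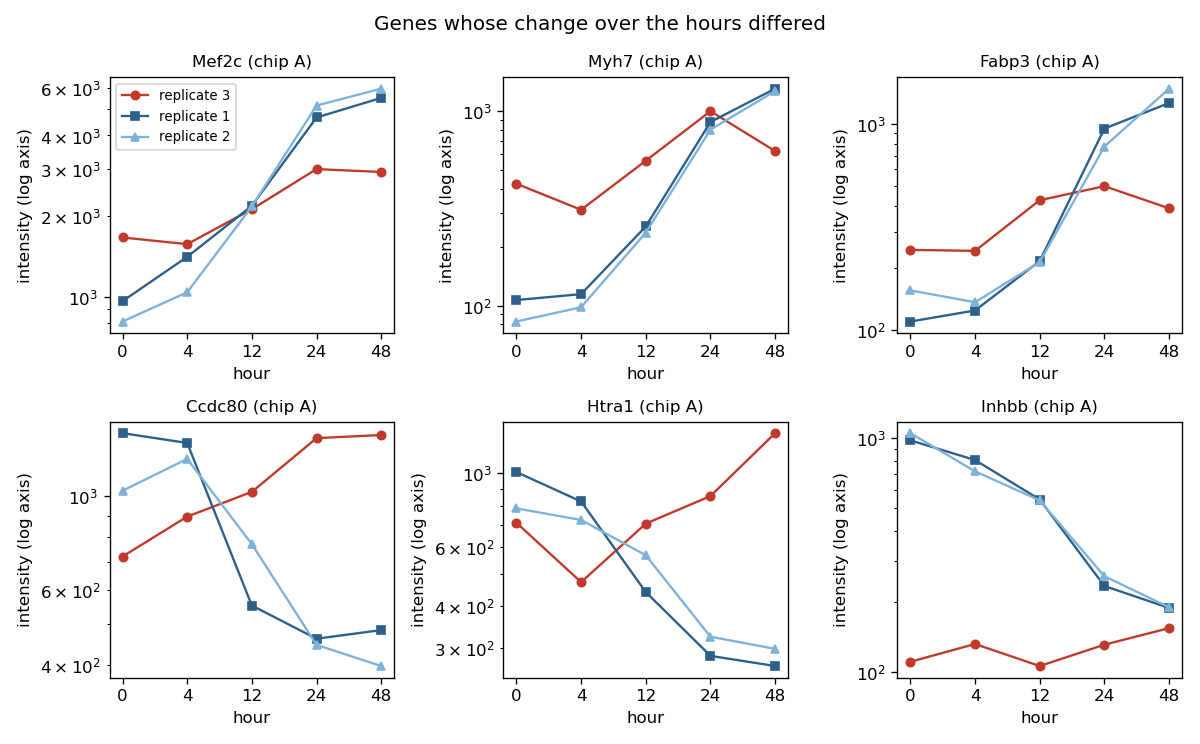
Intensity (log scale, scaled units) against hour of 6 genes whose change over the hours differed, on the arrays of rep 3 (red circles), rep 1 (dark squares) and rep 2 (light triangles). Mef2c, Myh7 and Fabp3 climb less in rep 3 and Ccdc80, Htra1 and Inhbb do not drop there as they do in reps 1 and 2.

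Imprinted genes were mostly lower. Of 15 imprinted genes 9 lay below and 0 above (median -0.61), against 10% and 11.2% of all genes. At least 2-fold lower were 5, against 1.37% of all genes. Nnat, neuronatin, read 30.9, 28.6, 12.6, 18.1 and 24.6 in rep 3, against 201 to 1058 (median 502). Plagl1, a zinc finger regulator of other imprinted genes, read 1929.9, 2305, 1747, 1081 and 518 in rep 3 and 2345 to 5426 (median 3967) in reps 1 and 2. Neither overlapped. Dlk1, a Notch-like ligand, read 156, 163, 139, 158 and 156 in rep 3, against 306, 396, 483, 996 and 1828 in rep 1 and 330.4, 366, 532, 739.5 and 1629 in rep 2. The fitted change was -0.01 in rep 3, and it rose in the others by 2.32 (limma, adjusted p = 4.71e-08), a difference of -2.33 ± 0.28 (adjusted p = 0.00024), kept whichever array was left out. Bex1, a small X-linked gene known from neurons and regenerating muscle, rose in reps 1 and 2 (4.27; limma, adjusted p = 2.56e-09) and did not pass in rep 3, with 169, 126, 168, 248 and 227 in rep 3 and 489.5, 756, 2002, 5379 and 5184 in rep 1 (difference of change -3.64).

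Igf2, the fetal growth factor, read 7457, 7997, 9404, 9538 and 7093 in rep 3, against 9939 to 15294 (median 12402), without overlap but with a difference of -0.60. Of 11 genes of the insulin-like growth factor system, 3 lay below and 1 above at all hours, against 10% and 11.2% of all genes. Igfbp2 (-1.64) and Igfbp5 (-0.96) were lower, Igf1r was higher (0.41), and Igf2r was not apart (0.38). Mest (-1.21) and Grb10 (-0.93), both imprinted, were lower, and the non-coding RNAs Rian (0.13) and Mirg (0.01) were within the spread. Sgce had a difference of 0.31 by its brightest probe set and -0.71 by another.

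**Figure D5:**
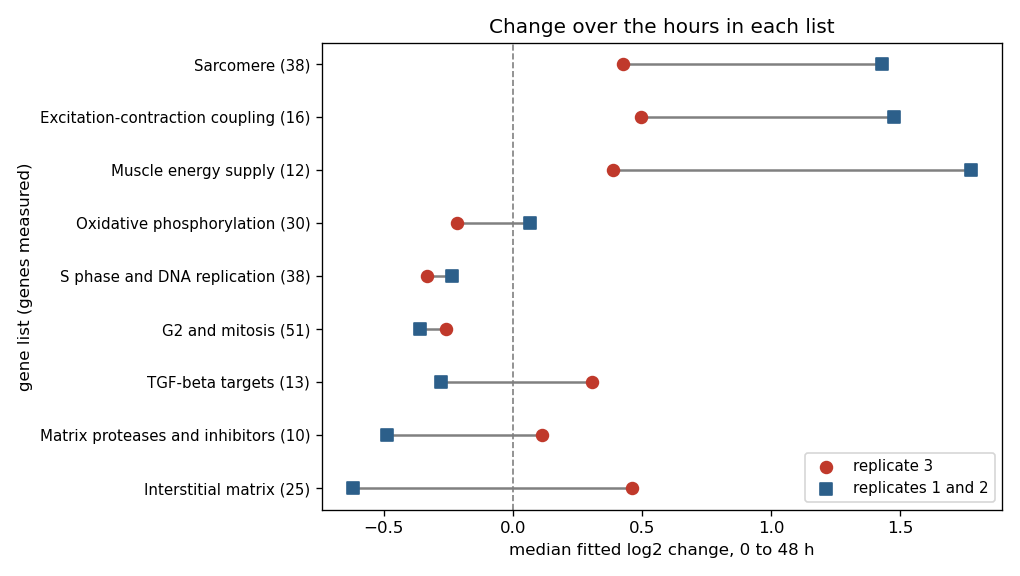
Median fitted log2 change from 0 to 48 h in rep 3 (red circles) and in reps 1 and 2 (blue squares) for 9 gene lists. The medians are 0.42 and 1.43 for sarcomere genes and 0.46 and -0.62 for interstitial matrix.

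Markers of other cell types were followed beside these groups, because in bulk RNA fewer cells of a type and less RNA per cell cannot be told apart. Of 16 fibroblast markers 4 were bright enough to test. Cd34 and Twist2 (1.60) were higher, Dpep1 lower (-0.62) and Tcf21 not apart (-0.18). The 15 markers on the chips, those too dim to test included, summed to 2693.7 to 3377.3 in rep 3 and 2297.1 to 3317.5 in reps 1 and 2. Of 14 endothelial markers 5 were tested, with Eng (-1.04) and Tek (-0.59) lower and Kdr, Flt1 and Egfl7 not apart. All 14, tested or not, summed to 749.4 to 929.7 in rep 3 and 923.2 to 1437.7 in the others. Of 14 pericyte and smooth muscle markers 7 were tested. Rgs5 and Acta2 (-0.19) were lower and Cspg4 higher (0.78). These 2 lower genes were the only negative differences, and the other 5 were positive (median of the 7, 0.24). The sums over all 14, tested or not, overlapped, at 12511.6 to 21978.9 in rep 3 and 13797.8 to 23593.4 in the others. None of 5 tested macrophage markers was apart. Beside these marker counts, 11.2% of all genes lay above and 10% below at all hours. The part of other cells in the differences of matrix and division genes was not tested.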

How the data were processed

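RNA was measured on 30 arrays, 15 of each of 2 chips. The deposited intensities, 1 value per probe set and array, had been scaled by the authors as whole arrays: the 2% trimmed mean was 500.1 to 500.2 on A and 500.1 on B, as read from the deposited values. The sources used here give no summary algorithm and no detection calls. No scaling was added. Such scaling hides changes in total RNA per cell.

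Of the deposited probe sets (22690 on A, 22575 on B, with 64 controls each left out), 20380 and 14661 had 1 gene, 691 and 245 several, and 1555 and 7605 none, by a table of GEO's platform annotation, with symbols checked against RefSeq GRCm38.p6. Log2 values were computed here from the deposited intensities after adding the 20th percentile of each chip (29 and 54). The upper 60% by mean were tested, 13575 on A and 13506 on B. A gene bright in only 1 of the sets of arrays passes this filter through that set. A gene took its brightest tested probe set, from A (7892 genes) before B (4554).

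The offset of rep 3 was described, not tested. Changes were fitted per chip in limma 3.58.1 (R 4.3.3, eBayes with an intensity trend), with hour as polynomials of rank, rep 3 against the others, and its product with the linear term. P-values were two-sided and adjusted by Benjamini-Hochberg, with calls under 0.05. Tables and figures used Python 3.11.15, pandas 2.3.3 and matplotlib 3.10.9. Members and lists were chosen with earlier results of these data known. Named genes are the 10 highest and 10 lowest differences apart at all hours on A (5 and 5 on B), the 6 and 6 most unequal changes on A (3 and 3 on B), up to 4 of each list and 2 against its majority, and a fixed set, of which H19 and Ddx3y were not analysed here and Pdgfra and Tbx5 were too dim. Others were named after their values were seen. Replicate numbers are shared across hours and are not stated to pair arrays. Alternatives were other pseudocounts, filters, folds and scalings, the replicate block, other eBayes settings, another probe set, and leaving out replicates or single arrays. Tested on simulated data built from these arrays, the fit of unequal change recovered 19% of 2-fold and 86% of 4-fold differences on A and 4% and 41% on B.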

Additional observations from a re-analysis of the deposited data

Results flagged for a closer look

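The change over the hours differed between rep 3 and reps 1 and 2 in 422 probe sets on A and in 100 on B (limma). Differences of change for the named genes, in log2 units, rep 3 minus reps 1 and 2, follow.

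Negative differences, a smaller rise or a larger fall in rep 3, were found in muscle genes. They were -2.75 for Myh7, -1.18 for Myh3, -1.92 for Mef2c, -2.70 for Cacna1s, -2.05 for Casq1, -1.98 for Cav3, -2.61 for Fabp3, -1.51 for Ckm and -1.63 for Pgam2. Outside the muscle lists they were -3.64 for Bex1, -2.33 for Dlk1, -3.25 for Fn3k, -3.19 for Nefl, -2.60 for Nefm, -2.31 for Dynap, -3.86 for Gimap7, -2.58 for Camk2a and -2.38 for 1700012B09Rik. Smaller ones were -1.47 for Egln3, -1.10 for Erbb3, -0.85 for Igfbp2 and -0.998 for Phlda1.

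Positive differences were found in matrix and secreted genes, 5.29 for Cthrc1, 2.67 for Postn, 1.68 for Lox, 1.97 for Mmp2, 1.92 for Timp3, 2.21 for Col2a1, 2.68 for Ccdc80, 2.78 for Htra1, 2.72 for Inhbb and 2.48 for Pappa. Further ones were 2.77 for Ndrg1, 2.80 for Snai2, 2.94 for Fzd6, 3.20 for Mn1 and 2.33 for Stmn2. Less positive were 1.38 for Ccnd2, 1.34 for Kirrel, 1.23 for Scd1, 1.23 for Sesn2 and 0.917 for Plk2.

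The call was lost without the 48 h array of rep 3 and with no other array left out for Cacna1s, Cav3, Ccnd2, Egln3, Fabp3, Fzd6, Lox, Mmp2, Mn1, Pappa and Postn. Other calls were lost more easily. The call ended on leaving out any of 14 of 15 arrays for 1700012B09Rik, 11 for Igfbp2, 8 for Gimap7, 6 for Casq1, 5 for Plk2, Scd1 and Sesn2, 4 for Camk2a and Pgam2, and 3 for Ckm and Col2a1. It ended for 2 arrays for Erbb3, Kirrel, Myh3, Phlda1 and Snai2, and without the 0 h array of rep 3 for Nnat and Timp3 (1.13 for Timp3). Without the 48 h array of rep 3 the difference was -0.734 for Casq1, -0.949 for Pgam2, 0.748 for Sesn2 and 0.612 for Plk2.

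Fn3k in reps 1 and 2 and Gimap7 in rep 3 had values below the pseudocount, so the size of their differences of change depends on it. Cthrc1 (5.29) and Nnat (1.72) were called too. Both had values below the pseudocount in rep 3 and passed the brightness filter through reps 1 and 2, so their calls are not read as a result. With 3 arrays an hour, no search for single outlying arrays was made within an hour.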

How the results depend on the processing

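The counts of probe sets apart by at least 2-fold (303 and 169 on A, 176 and 127 on B, in the order higher and lower) depended on the fold and on the pseudocount. At 1.5-fold they were 822 and 574 (A) or 475 and 374 (B). At 3-fold they were 52 and 54 (A) or 34 and 28 (B). With 4 times the pseudocount they were 175 and 105 on A and 107 and 59 on B, and in the upper 40% by mean 182 and 101 on A. For the difference of change on B, the count was 64 with no filter, 170 in the upper 40%, and 14 by eBayes without intensity trend. For the change within rep 3 on B it was 57 with no filter, 16 without the intensity trend and 47 with array weights. Without replicate 1 the difference of change had 114 calls on A and 4 on B, the change in rep 3 166 and 19, and that in the remaining replicate 1367 and 287. Without replicate 2 these were 233 and 3 for the difference, 27 in rep 3 on B, and 1263 and 290.

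Leaving out 1 array at a time gave 251 to 336 higher and 162 to 182 lower on A and 177 to 207 and 121 to 165 on B. The difference of change ran from 108 to 476 on A and 17 to 120 on B, the change in rep 3 from 65 to 357 and 17 to 105, and that in reps 1 and 2 from 1872 to 2630 and 713 to 1168. Probe sets called in a fit to reps 1 and 2 alone that had the same sign in rep 3 (1873 on A, 817 on B) numbered 1244 to 2146 and 480 to 854. With the replicate number as a block in place of rep 3 against the rest, the difference of change had 201 and 175 calls on A and 43 and 37 on B, more positive and more negative. The numbers were not taken to pair arrays. Deviations from the mean of the hour correlated at no more than 0.044 (A) and 0.003 (B) for some arrays of 1 number. By them 11 of 15 and 9 of 15 arrays correlated best with an array of their own number, but these deviations hold the offset of rep 3. Free of that offset, rep 1 minus rep 2 at 1 hour correlated with that at another at -0.274 to 0.379 on A and -0.104 to 0.102 on B.

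By another probe set of the gene the difference had the opposite sign for 18 of 187 probe sets. The value moved by more than its spread over the hours for 2210016F16Rik (0.052), Csf1r (-0.029), Laptm5 (0.096), Nars (0.037), Scx (0.064), Sgce (-0.708) and Shmt2 (-0.182), and by less for Aldoa (0.088), Camk2a (-0.006 and -0.152), Cox5a (-0.018 and -0.045), Fn3k (-0.51), H2-K1 (0.359), Pappa (0.252), Pfkp (0.040 and 0.088) and Snai2 (0.212). The cause was not tested. Scaling alternatives moved the median of all genes from -0.012 to at most -0.001. Signal over background is unknown, so levels of the dimmest probe sets have no order.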

Other observations

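Genes of position in the body and limb differed in single members and not as lists. Of 14 Hox genes, 2 lay below in rep 3, Hoxb2 (-1.39) and Hoxb3 (-1.02), and 3 above, Hoxa9 (0.45), Hoxa10 (0.56) and Hoxc10 (0.45). Among all genes 10% lay below and 11.2% above. Pitx1, the hindlimb factor, read 45.1, 124, 84.6, 67.4 and 39.9 in rep 3, against 146 to 331 (median 226), without overlap, and Prrx1, a factor of limb mesenchyme, was lower too (-1.40). Of the retinoid genes, Crabp2 (-1.44) lay opposite to Crabp1.

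Cxcl12, the chemokine ligand of Cxcr4, read 1959, 1980.3, 1712, 1784 and 1682 in rep 3, against 290.3 to 639 (median 446), while its receptor was lower. Ccn2, a target of TGF-beta and of stretch, read 3549, 3612, 3575, 4362 and 2478 in rep 3, against 561 to 1591 (median 975). Both genes were higher in every rep 3 array than in any other. Among immediate early genes Fos was lower (-1.04) and Klf2 (1.13) and Klf4 (1.10) were higher. Of 11 ERK targets 4 lay above (11.2% of all genes did), led by Dusp6 (0.89) and Ier3 (0.86).

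Genes of the amino acid response had 6 of 21 above and 0 below (median 0.15), against 11.2% and 10% of all genes. Among the 6 were Shmt2 (0.74) and Slc7a5 (0.61). The median difference was 0.61 at 48 h, and 0.22 or less at the earlier hours. Of 30 genes of oxidative phosphorylation 24 had a negative difference, with a median of -0.11, beside -0.01 over all genes. The share of all genes with a negative difference was not counted. Below at all hours were 2, Ndufs1 (-0.26) and Sdha (-0.22), against 10% of all genes. Over 100 probe sets that are on both chips and were tested on both, the differences had a Pearson r of 0.934 across probe sets, and 81 had the same sign.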
